A study of Mus musculus with 6 samples.

Results

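Onecut2, Bhmt, Inpp5j, Sec14l1, Gpr176, Runx2, Parm1, Ptgfr and Apoa1 are 9 genes, of the 49315 in the count files, that had been proposed as luteal-type genes raised in 2 of 3 libraries from Jmjd3-deleted granulosa cells. They were chosen by name, with their levels in these same libraries known, so the levels below are a description. Tests over all genes include the 9, but for the same reason nothing is read from their calls. All 9 passed the filter on low counts, which kept 18250 genes. The data went against the proposed name for 4 of them: Apoa1 was below every wild-type library in all 3 knockout libraries, Parm1 was above the wild-type range in KO2 only, and Onecut2 and Ptgfr were above it in all 3. The other 5 (Bhmt, Inpp5j, Sec14l1, Gpr176 and Runx2) were above every wild-type library in KO1 and KO2 and not in KO3.

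The study sequenced messenger RNA of freshly isolated granulosa cells, the somatic cells that surround the oocyte in the ovarian follicle, from female C57BL/6J mice aged 8 to 9 weeks. There were 3 libraries labelled wild type (WT1, WT2 and WT3) and 3 labelled Jmjd3 knock out (KO1, KO2 and KO3), and the deletion is described as granulosa cell specific. The labels do not name the Cre driver, the exons removed, the stage of the cycle, any hormone given, or whether animals were pooled. Separate animals are not stated either, so a p-value covers the variation among the 6 libraries, part of which may be technical. Library totals ran from 42379018 to 49901493 counts, and 1 CPM (relative to library sizes after TMM scaling) corresponds to between 42.5 and 51.4 counts. Granulosa markers were high in every library, with Inha, the inhibin alpha subunit, between 6401 and 10007 CPM. The transcript of the targeted gene, Kdm6b (the other name of Jmjd3), stood at 72.8, 66.3 and 66.2 CPM in WT1 to WT3 and at 64.7, 68.6 and 112 CPM in KO1 to KO3, so KO1 was just below the WT libraries, KO2 among them and KO3 above (log2 fold change 0.26 ± 0.22 SE, adjusted p = 0.755, edgeR). Counts over the whole gene do not show whether exons are missing, so KO1 to KO3 are the libraries labelled KO and their genotype rests on the label. KO3 stood apart from KO1 and KO2: over 11 tested genes of ovulation and cumulus expansion its median log2 difference from the WT mean was 3.43, against -0.09 in KO1 and -0.14 in KO2. Each KO library is therefore shown by itself.

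After ovulation the granulosa cells that remain in the follicle turn into luteal cells, stop dividing and make progesterone. Luteal cells take up cholesterol from circulating lipoproteins, carry receptors for luteinizing hormone and prolactin, and answer to prostaglandin F2alpha, which ends the life of the corpus luteum. The 9 genes touch separate steps of cell physiology: PTGFR is the receptor for prostaglandin F2alpha, RUNX2 and ONECUT2 are transcription factors, and GPR176 is an orphan receptor. INPP5J is a phosphoinositide phosphatase, SEC14L1 belongs to a family of lipid-binding proteins, BHMT is an enzyme of methionine synthesis, APOA1 is the main protein of high-density lipoprotein, and PARM1 is a mucin-like membrane protein. In bulk RNA, more cells of a type and more RNA per cell cannot be told apart.

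Promoter sequences from RefSeq (GRCm38.p6, 250 bases before the transcription start to 50 after it) were found for 7 of the 9 genes, as 8 promoters because Sec14l1 has 2. Onecut2 and Inpp5j had no entry. Each was searched on both strands for AAGGTCA, bound by the NR5A factors SF-1 and LRH-1 that drive steroidogenic genes, for TGTGGT, bound by RUNX factors, for TGACGTCA, bound by CREB, and for AGATAA, bound by GATA factors. None of these motifs overlapped another in the 3 promoters that held any, which are printed 5′ to 3′ on the strand of the gene with the matches in capitals. They are Bhmt (chr13:93637709-93638008, minus strand), Runx2 (chr17:44814578-44814877, minus strand) and Gpr176 (chr2:118373370-118373669, minus strand), shown because they are the members in which a motif of a granulosa or luteal regulator lies next to the start.
Bhmt: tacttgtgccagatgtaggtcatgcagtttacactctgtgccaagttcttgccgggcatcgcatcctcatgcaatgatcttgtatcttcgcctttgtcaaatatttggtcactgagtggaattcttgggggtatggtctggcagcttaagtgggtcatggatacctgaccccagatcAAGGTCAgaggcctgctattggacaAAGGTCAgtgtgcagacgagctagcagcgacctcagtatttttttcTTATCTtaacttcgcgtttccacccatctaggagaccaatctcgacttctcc
Runx2: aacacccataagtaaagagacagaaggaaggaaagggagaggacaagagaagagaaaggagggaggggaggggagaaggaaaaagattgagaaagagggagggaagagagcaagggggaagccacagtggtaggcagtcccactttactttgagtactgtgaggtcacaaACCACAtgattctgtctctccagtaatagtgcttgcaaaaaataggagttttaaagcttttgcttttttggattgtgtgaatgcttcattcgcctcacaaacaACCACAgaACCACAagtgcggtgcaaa
Gpr176: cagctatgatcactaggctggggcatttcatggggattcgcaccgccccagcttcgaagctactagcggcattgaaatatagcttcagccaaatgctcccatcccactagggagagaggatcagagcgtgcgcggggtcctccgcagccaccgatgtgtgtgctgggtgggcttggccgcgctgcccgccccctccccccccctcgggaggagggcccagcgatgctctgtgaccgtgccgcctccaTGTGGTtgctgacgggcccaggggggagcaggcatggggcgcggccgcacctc
In the Bhmt promoter the NR5A motif starts 73 and 48 bases before the transcription start, and the GATA motif, read from the other strand, 2 bases before it. The Runx2 promoter holds the RUNX motif 3 times, each read from the other strand as ACCACA: once 80 bases before the start and at bases 24 and 32 after it. In the Gpr176 promoter TGTGGT starts 3 bases before the start. Of all 32851 promoters of this length, 4.72% hold the NR5A motif, against 1 of the 8 here. The RUNX motif is in 16.8% of all and in 2 of the 8, the GATA motif in 11.2% and in 1, and the CREB motif in 1.79% and in 0. The matches are a description of letters in a window, not of bound sites.

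The gene with the largest difference was Onecut2 (chromosome 18, 64340364 to 64398488, plus strand), a cut-homeodomain transcription factor known from liver and nervous system development. It stood at 2.30, 1.70 and 1.31 CPM in WT1 to WT3 and at 24.3, 16.6 and 3.88 CPM in KO1 to KO3. All 3 KO libraries lay above the WT range, with KO3 far closer to it than the other two. Against the WT mean on the log2 CPM scale (prior count 2, as for every difference by library below), Onecut2 was higher by 3.78 in KO1, 3.24 in KO2 and 1.15 in KO3, which are 13.8-fold, 9.42-fold and 2.22-fold. Its raw counts were between 66 and 118 in WT and 1138 in KO1, 704 in KO2 and 187 in KO3. The KO minus WT log2 fold change over all libraries was 3.07 ± 0.77 (SE, edgeR).

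RUNX2 (chromosome 17, 44495987 to 44814797, minus strand) is the master regulator of bone formation and is also made by granulosa cells around ovulation in rodents. Runx2 stood at 64.8, 57.7 and 62.4 CPM in WT1 to WT3 and at 77.3, 85.3 and 34.0 CPM in KO1 to KO3. KO1 and KO2 lay above every WT library and KO3 below every one, so the KO libraries fell on either side of the WT range. The differences from the WT mean were 0.33, 0.47 and -0.86, and the log2 fold change over all libraries was 0.09 ± 0.36 (SE). Its direction turned with the library left out: -0.06 without KO1, -0.15 without KO2 and 0.40 without KO3.

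Among receptors, Ptgfr (chromosome 3, 151796502 to 151837630, minus strand) stood at 190 CPM in WT1, 83.2 in WT2 and 107 in WT3, and at 410, 246 and 239 CPM in KO1 to KO3. Every KO library was above every WT library, although WT1 was much nearer to KO3 than to WT2. The differences from the WT mean were 1.78, 1.05 and 1.0, against 0.67 in WT1, and the log2 fold change was 1.24 ± 0.41 (SE). KO2 and KO3 were thus nearly level. A predicted gene on the opposite strand, Gm43618, shares 4.17% of the 50-base words of the Ptgfr transcripts and was looked at after its values were seen. It had 36, 29 and 37 counts in WT and 85, 64 and 83 in KO, and edgeR called it higher (1.30 ± 0.20 SE, adjusted p = 0.0406). Ptgfr itself had 3966 to 9745 counts in WT and 10459 to 19215 in KO. Since no strand setting is stated for the counting, reads of Gm43618 and of Ptgfr in the shared part cannot be told apart.

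Gpr176 (chromosome 2, 118277110 to 118373419, minus strand) encodes an orphan receptor that sets the pace of the circadian clock in the mouse brain. It was the least abundant member, at 0.43, 0.52 and 0.44 CPM in WT (22 to 25 counts) and at 2.26, 1.98 and 0.50 CPM in KO1 to KO3 (106, 84 and 24 counts). KO1 and KO2 stood clear of the WT libraries, 4.58-fold and 4.02-fold above their mean, and KO3 lay within them. The log2 fold change was 1.76 ± 0.54 (SE).

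**Figure D1:**
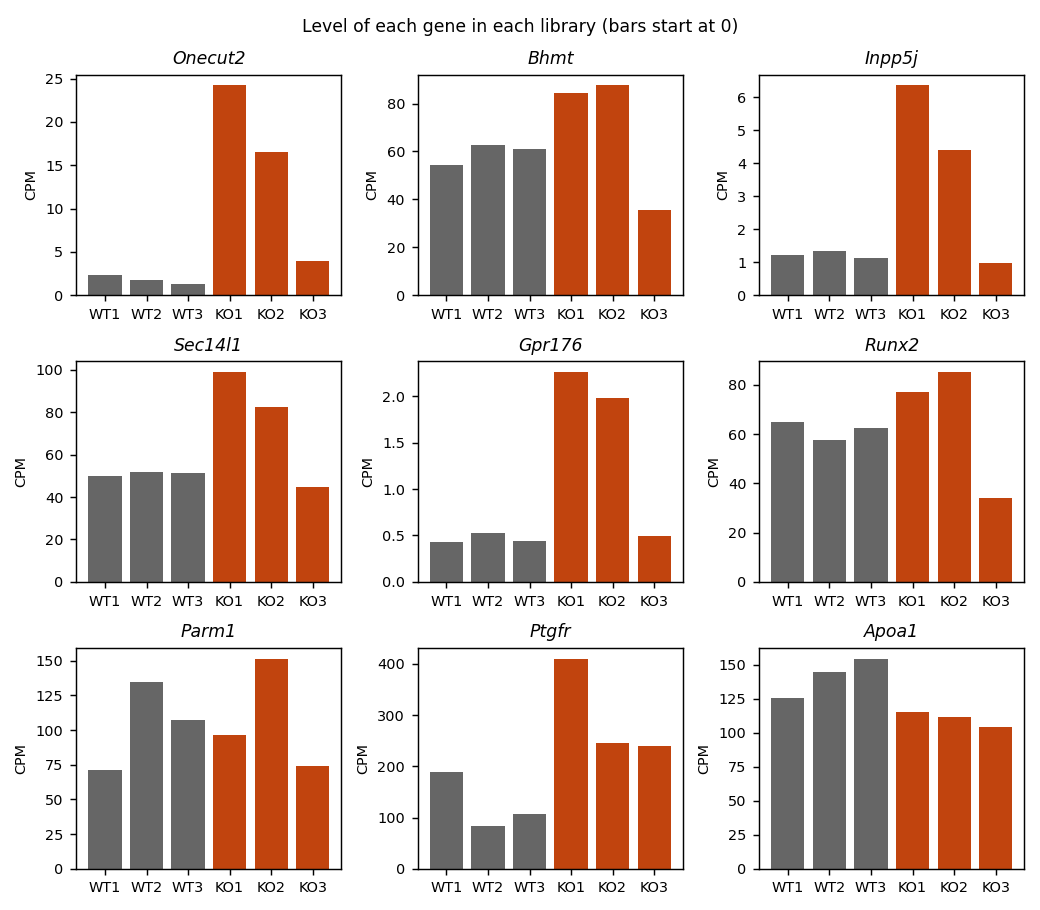
Level of each of the 9 genes in CPM (vertical axis, starting at 0, own scale per gene) in the 3 WT libraries (grey bars) and the 3 KO libraries (orange bars), 1 bar per library. Onecut2, Inpp5j and Gpr176 are low in WT and stand out in KO1 and KO2, while Apoa1 is between 105 and 116 CPM in KO and between 125 and 155 CPM in WT.

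The enzymes and lipid-handling proteins came in both shapes. Inpp5j (chromosome 11, 3494375 to 3504821, minus strand), whose product removes a phosphate from the lipid messengers made by PI3 kinase, stood at 1.23, 1.32 and 1.13 CPM in WT. In KO1 to KO3 it stood at 6.38, 4.4 and 0.98 CPM. KO1 and KO2 were 5.07-fold and 3.51-fold above the WT mean, and KO3 lay slightly below the lowest WT library (47 counts against 57 to 63). Its exons overlap those of Pla2g3 on the opposite strand, which shares 6.61% of its 50-base words, but Pla2g3 had only 8 to 14 counts in any library.

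Sec14l1 (chromosome 11, 117115168 to 117159268, plus strand) showed the steadiest WT level of the 9, at 50.0, 52.0 and 51.5 CPM. It stood at 99.0, 82.4 and 44.9 CPM in KO1 to KO3. The differences from the WT mean were 0.95, 0.69 and -0.19, where the WT libraries themselves ranged only from -0.03 to 0.02. KO3 was therefore below every WT library by a small margin and KO1 and KO2 above by a wide one.

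Bhmt (chromosome 13, 93616891 to 93637961, minus strand) encodes betaine-homocysteine methyltransferase, which makes methionine from homocysteine with betaine as methyl donor and is best known from liver. It stood at 54.2, 62.5 and 60.8 CPM in WT against 84.3, 87.7 and 35.6 CPM in KO1 to KO3. KO1 and KO2 were 1.43-fold and 1.48-fold above the WT mean, and KO3 stood at 0.60 of it, below every WT library. Of the 50-base words in the Bhmt transcripts, 26.1% occur in transcripts of other genes, mainly the predicted gene Gm5096, so its value is uncertain. The counts of Gm5096 itself were 2 to 10 per library, those of the paralog Bhmt2 3 to 11 and those of the pseudogene Bhmt-ps1 0 or 1.

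Apoa1 (chromosome 9, 46228580 to 46230466, plus strand) moved the other way. It stood at 125, 145 and 155 CPM in WT against 116, 112 and 105 CPM in KO1 to KO3, so the groups did not overlap and the KO libraries were the lower ones. The log2 fold change was -0.36 ± 0.09 (SE), with the smallest spread between KO libraries of the 9 genes in relation to its level (110.6 ± 5.58 CPM, SD, n = 3). No sequence of 50 bases in its transcripts was found in those of another gene.

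Parm1 (chromosome 5, 91517615 to 91626894, plus strand), first described as an androgen-regulated gene of the rat prostate, varied far more within groups than the group means differed. It stood at 71.0, 135 and 107 CPM in WT against 96.6, 151 and 74.1 CPM in KO1 to KO3. Only KO2 lay outside the WT range. The group means were 104 ± 31.9 and 107 ± 39.8 CPM (SD, n = 3), a log2 fold change of 0.04 ± 0.37 (SE), which became -0.29 without KO2 and -0.17 without WT1.

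**Figure D2:**
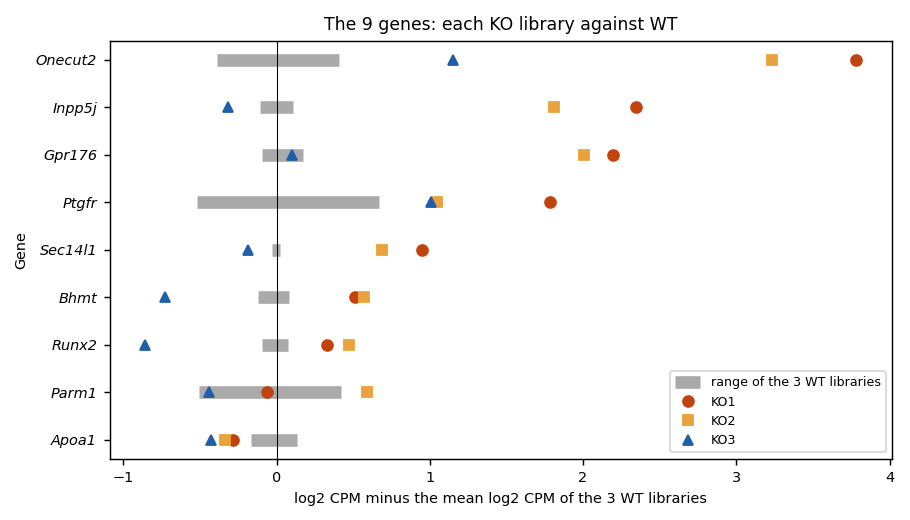
Difference of each KO library from the mean of the 3 WT libraries (horizontal axis, log2 CPM) for the 9 genes, ordered by KO1. Grey bars span the 3 WT libraries, circles are KO1, squares KO2 and triangles KO3. KO1 is outside the bar for every gene except Parm1, and KO3 is to the left of the bar for Bhmt, Inpp5j, Sec14l1, Runx2 and Apoa1.

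Seen by library, 7 of the 9 genes were above every WT library in KO1, 8 in KO2 and 2 in KO3. Among all 18250 genes tested the same held for 31.3% in KO1, 27.2% in KO2 and 29.3% in KO3. In KO3, 5 of the 9 were below every WT library, beside 30.1% of all genes. A KO1 and KO2 level above every WT library with a KO3 level below every one was found in 4 of the 9 (Bhmt, Inpp5j, Sec14l1 and Runx2) and in 4.51% of all genes. All 3 KO libraries were above every WT library for 2 of the 9 and 7.68% of all genes, and below for 1 of the 9 and 7.89%. KO1 and KO2 together were above for 7 of the 9 and 17.2%. The order KO1, KO2, KO3 from high to low held for 6 of the 9 and 25.1%. Because the members were chosen from these levels, nothing is read from the difference between these shares. The median difference of the 9 genes from the WT mean was 0.95 in KO1, 0.69 in KO2 and -0.31 in KO3, while the median over all genes lay within 0.01 of 0 in each KO library. In edgeR's test of KO against WT with Benjamini-Hochberg adjustment over all genes, 0 of the 9 were called at an adjusted p under 0.05, where 0.219% of all genes (40 genes) were, and 5 of the 9 had an unadjusted p under 0.05, as did 9.16% of all genes. DESeq2 called 2 of the 9 (Onecut2 and Gpr176) beside 1.21% of all genes, and limma-voom called 0 beside 0.466%. Without the filter on low counts edgeR called Apoa1, with 0.617% of all genes, and without KO3 it called 6 of the 9 (Onecut2, Bhmt, Inpp5j, Sec14l1, Gpr176 and Runx2), with 2.26% of all genes. The members had been chosen with KO1 and KO2 in view, so nothing is read from that count either.

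**Figure D3:**
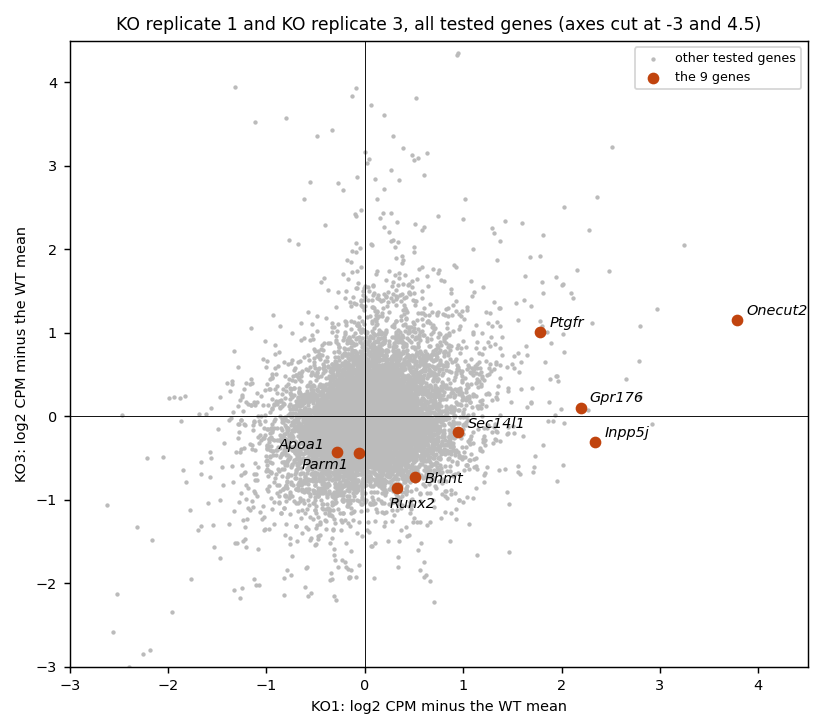
Difference from the WT mean in KO1 (horizontal axis) and KO3 (vertical axis), both in log2 CPM, for the other tested genes (grey points) and the 9 genes (orange, named). The axes end at -3 and 4.5 and leave out 11 genes, and both differences use the same WT libraries. Onecut2, Ptgfr and, narrowly, Gpr176 (0.10 in KO3) are above 0 on both axes, whereas Bhmt, Runx2, Sec14l1 and Inpp5j are above 0 for KO1 and below 0 for KO3.

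The 9 genes did not vary as a single group over the 6 libraries. Pearson's r of log2 CPM, given as a description since the libraries are few and share their groups, was highest for Sec14l1 with Inpp5j (r = 0.996), Gpr176 with Inpp5j (0.98) and Gpr176 with Sec14l1 (0.97). Runx2 and Bhmt also went together (0.95), the 2 members with the lowest differences in KO3. Ptgfr was weakly related to Runx2 (0.18) and Bhmt (0.21) and inversely to Parm1 (-0.30) and Apoa1 (-0.83). Against the mean profile of all 9, single members ranged from 0.98 (Sec14l1) to -0.18 (Apoa1). Each member is part of that profile, which raises its r, so these values do not compare with those of other genes.

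Among 11162 other genes, each averaging 5 CPM or more, 3.23% had an r above 0.9 to that mean profile. The 10 with the highest r were Nrp1, Plxnd1, Slc22a15, Pex5, Aplp2, Chmp7, Gpr141, Rom1, Extl2 and Tmem62 (r from 0.98 to 0.99), named by a rule on likeness and not by function. Nrp1, a co-receptor for semaphorins and vascular endothelial growth factor, stood at 23.0, 24.9 and 24.9 CPM in WT against 33.7, 31.5 and 21.3 CPM in KO1 to KO3. Plxnd1, a semaphorin receptor of blood vessels, stood at 69.5, 77.2 and 78.2 CPM in WT against 105, 106 and 62.4 CPM in KO. The most abundant of the 10, Aplp2, a relative of the amyloid precursor protein, stood at 1164, 1232 and 1271 CPM in WT against 1679, 1569 and 1097 CPM in KO. In each of these 3 genes KO1 and KO2 were above the WT libraries and KO3 below them. The ranking by likeness to the members picks genes of this shape, so the shape is not a separate result.

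Beside close relatives, per kilobase of annotated exon, the 9 genes differed in rank. PTGFR's transcript was the most abundant of the prostanoid receptors listed: its WT level was 18.7 ± 8.23 CPM per kilobase (SD, n = 3), and the next, the prostaglandin E2 receptor gene Ptger2, stood at 1.34 ± 0.08. In KO3 another E2 receptor gene, Ptger4, reached 6.61 CPM per kilobase, where its WT level was 0.47 ± 0.05, and Ptgfr stood at 35.3. In WT, Runx2 (6.97 ± 0.41) and Runx1 (6.84 ± 1.63 CPM per kilobase) did not differ beyond their spread, and Runx3 was low at 0.13 ± 0.04. Runx1 did not show the pattern of Runx2: it stood at 57.2, 89.3 and 67.2 CPM in KO1 to KO3 and at 60.3 to 98.4 CPM in WT. Runx3, though low, was nearer to it: it stood at 1.98, 1.22 and 0.52 CPM in KO1 to KO3 and at 0.42 to 0.84 CPM in WT, above every WT library in KO1 (3.05-fold the WT mean) and KO2 (1.91-fold) and within the WT range in KO3.

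Sec14l1 stood at 7.13 ± 0.14 CPM per kilobase in WT and its relatives Sec14l2, Sec14l3, Sec14l4 and Sec14l5 at 0.58, 0.18, 0.35 and 0.07. Onecut2 was at 0.13 ± 0.04 in WT and at 1.81 in KO1, where Onecut1 had 7 counts and Onecut3 had 1. Bhmt was at 10.7 ± 0.79 and Bhmt2 at 0.06 ± 0.02 CPM per kilobase. Apoa1 (114 ± 12.0) and its neighbour Apoa4 (128 ± 5.37 CPM per kilobase) were of similar level in WT, but Apoa4 stood at 222 to 241 CPM in WT against 264, 247 and 246 CPM in KO, not lower.

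Of 13 luteal cell markers that are not among the 9 genes, 12 were above every WT library in KO1, 11 in KO2 and 8 in KO3, against the shares of all genes given above. In KO3, 2 of the 13 were below every WT library, beside 30.1% of all genes. The median log2 fold change was 0.52, beside a median of 0.00 over all genes. In edgeR 0 of the 13 were called, beside 0.219% of all genes, and 8 had an unadjusted p under 0.05, beside 9.16% of all genes. DESeq2 called 5, beside 1.21% of all genes, and limma-voom with quality weights called 2, beside 0.466%. Without KO3, edgeR called 5 of the 13 (Prlr, Star, Cyp11a1, Fdx1 and Por) among 421 genes, which were 2.26% of all genes. Without KO1 it called Star among 26 genes. This list was already known to be high in these libraries, so it gives no independent account of the 9 genes.

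Hsd3b1, which makes progesterone from pregnenolone and was the most abundant luteal marker, stood at 5279, 3961 and 4764 CPM in WT against 7786, 5886 and 5043 CPM in KO1 to KO3. Scarb1, the receptor through which cells take cholesterol from the lipoprotein that carries APOA1, stood at 1230, 929 and 1061 CPM in WT against 1950, 1307 and 1103 CPM in KO libraries. Its log2 fold change was 0.44 ± 0.22 (SE), with an adjusted p of 0.596 in edgeR. For both genes KO1 and KO2 were above the WT libraries and KO3 within them. Cyp11a1, the gene of the side-chain cleavage enzyme, stood at 2980 to 3257 CPM in WT against 5678, 4132 and 2740 CPM in KO1 to KO3. Its KO1 and KO2 levels were above every WT library and its KO3 level below every one, as in Sec14l1. Fdx1, the ferredoxin that feeds electrons to the side-chain cleavage enzyme, did not follow this order, being highest in KO3 (1140 CPM, against 809 in KO1, 721.5 in KO2 and at most 608 in WT). The median of the 13 markers was 0.81 in KO1, 0.35 in KO2 and 0.29 in KO3, so in KO3 it was above 0 where the median of the 9 genes was -0.31.

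**Figure D4:**
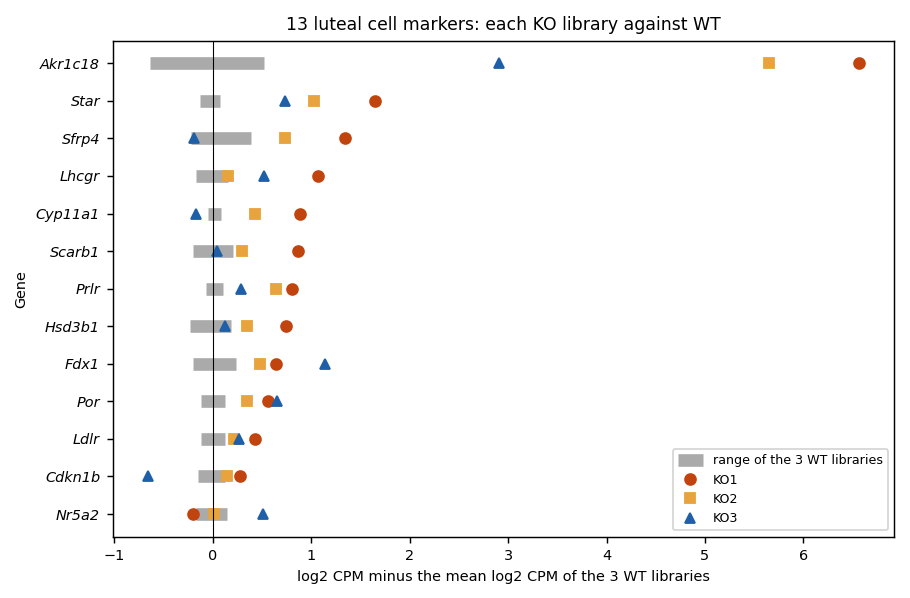
Difference of each KO library from the mean of the 3 WT libraries (horizontal axis, log2 CPM) for 13 luteal cell markers outside the 9 genes, ordered by KO1. Grey bars span the 3 WT libraries, circles are KO1, squares KO2 and triangles KO3. KO1 is right of the bar for 12 of the 13, and KO3 is right of it for 8.

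In 8 lists of genes around single members edgeR called 0 genes, beside 0.219% of all genes, so lists of this size would hold few calls or none at that share. The counts at an unadjusted p under 0.05 below stand beside 9.16% of all genes. Of 25 tested genes of prostaglandin synthesis, prostanoid receptors and Gq signalling, 0 were called in edgeR (5 had an unadjusted p under 0.05) and the median log2 fold change was 0.07. The 3 most abundant, Ptges (0.17 ± 0.07 SE, adjusted p = 0.505), Itpr1 (0.07 ± 0.09 SE, adjusted p = 0.82) and Akr1b3 (0.09 ± 0.08 SE, adjusted p = 0.771), missed the edgeR threshold. Prxl2b, which encodes an enzyme that makes prostaglandin F2alpha, was picked out after its values were seen: it stood at 34.4, 34.4 and 36.7 CPM in WT against 50.8, 43.7 and 27.5 CPM in KO1 to KO3. KO1 and KO2 were above and KO3 below the WT libraries, as in Sec14l1.

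In the methionine and betaine cycle 0 of 16 tested genes were called (3 with an unadjusted p under 0.05), with a median of -0.03. Ahcy, which splits S-adenosylhomocysteine, stood at 139 to 149 CPM in WT against 124, 129 and 137 CPM in KO, and Mat2a, which makes S-adenosylmethionine, at 124 to 139 CPM in WT against 132, 148 and 184 CPM in KO. Neither shared the pattern of Bhmt. Of 11 tested RUNX partners and bone genes 0 were called (0 with an unadjusted p under 0.05). Cbfb, the DNA-binding partner of all RUNX factors, stood at 138 to 155 CPM in WT and 148 to 165 CPM in KO.

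Of 12 tested HDL and apolipoprotein genes 0 were called (0 with an unadjusted p under 0.05), and 9 of them were ordered KO1, KO2, KO3 from high to low, as 25.1% of all genes were. Apoe, the main apolipoprotein of peripheral tissues, stood at 483 to 644 CPM in WT against 789, 615 and 456 CPM in KO1 to KO3. edgeR also called 0 of 21 phosphoinositide phosphatases and kinases (median log2 fold change 0.02, with 0 at an unadjusted p under 0.05). It called 0 of 8 SEC14 domain genes (median -0.09, 1 at an unadjusted p under 0.05) and 0 of 5 CUT domain factors (median 0.04, 1 at an unadjusted p under 0.05). Of 12 genes of the circadian clock and GPR176 partners it called 0 (median 0.08, 1 at an unadjusted p under 0.05). Dbp, a clock output gene, was above every WT library in KO1 and KO2 and below every one in KO3. It stood at 94.4, 87.2 and 46.7 CPM in KO1 to KO3 against 50.7 to 67.1 CPM in WT. The same held for Nr1d1, at 67.7, 74.6 and 42.7 CPM against 55.2 to 66.2 CPM in WT. Nr1d2 was above every WT library in each KO library, at 98.9, 110 and 93.7 CPM against 87.8 to 93.4 CPM.

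Markers of several other cell types also differed between the KO libraries. Every tested marker of endothelium, immune cells, red blood cells, smooth muscle with pericytes and stromal fibroblasts was ordered KO1, KO2, KO3 from high to low. So were 6 of the 9 genes: Onecut2, Inpp5j, Sec14l1, Gpr176, Ptgfr and Apoa1, the last below every WT library in each KO library. Bhmt, Runx2 and Parm1 did not have that order. Among all genes 25.1% had that order. It also held for 5 of 7 ovarian surface epithelium markers and 8 of 13 luteal markers. For granulosa, theca and oocyte markers it held for 1 of 12, 1 of 6 and 0 of 11. The summed level of 11 endothelial markers was 373, 263 and 177 CPM in KO1 to KO3 against 206 to 246 CPM in WT. For 13 immune cell markers the sums were 331, 254 and 178 CPM against 213 to 273 CPM in WT. Summed stromal fibroblast markers stood at 1273, 1063 and 657 CPM against 983 to 1213 CPM, those of smooth muscle and pericytes at 468, 371 and 314 CPM against 367 to 381 CPM, and those of red blood cells at 2260, 1339 and 830 CPM against 383 to 798 CPM. Of the 7 red blood cell markers edgeR called 1 higher, beside 0.219% of all genes called. It was Slc4a1 (2.13 ± 0.32 SE, adjusted p = 0.0406), at 0.16 to 0.34 CPM in WT and 0.83 to 1.11 CPM in KO. The theca cell sum was above the WT range of 222 to 295 CPM in each KO library, at 481, 338 and 347 CPM, mostly through Cyp17a1, the androgen-making enzyme, at 69.6 to 135 CPM in WT and 316, 174 and 203 CPM in KO. Of the 6 theca genes 3 had a positive log2 fold change, and Ptch1 was below every WT library in KO1 and KO3. Oocyte markers went the other way, with sums of 573, 558 and 627 CPM in KO1 to KO3 against 693 to 895 CPM in WT. In KO3, 5 of the 11 were below every WT library, beside 30.1% of all genes. In KO1 and in KO2, 10 of 11 were below every WT library, where the share of all genes was not computed. None of these lists had all its defining markers at 0, and their part in the levels of the 9 genes was not tested.

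Hepatocyte markers were near 0, although Bhmt, Apoa1 and Onecut2 are liver genes: over 12 markers the sum was 6.23 to 6.52 CPM in WT and 7.0 to 7.58 CPM in KO, with albumin (Alb) at 106 to 157 counts per library. The 6 osteoblast markers, which go with RUNX2 in bone, were mixed. Bglap had 0 to 2 counts, Sp7 1 to 7, Ibsp 6 to 15 and Dmp1 25 to 52 in any library, whereas Alpl had 725 to 1420 and Phex 1341 to 2827. The sum of the 6 was 57.8 to 64.2 CPM in WT and 51.9, 64.7 and 74.7 CPM in KO1 to KO3, lowest in KO1 and highest in KO3. The granulosa cell sum, by contrast, was 14233 CPM in KO2, within the WT range of 12218 to 14268 CPM, 14852 CPM in KO1 and 19112 CPM in KO3. Inha and Inhbb made up most of this sum, at 10007 and 3859 CPM in KO3. Of the 12 granulosa markers edgeR called 2, both lower, beside 0.219% of all genes called. They were the anti-Müllerian hormone receptor gene Amhr2 (log2 fold change -1.01 ± 0.09 SE, adjusted p = 0.00212) and the transcription factor gene Wt1 (-0.54 ± 0.07 SE, adjusted p = 0.0246).

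**Figure D5:**
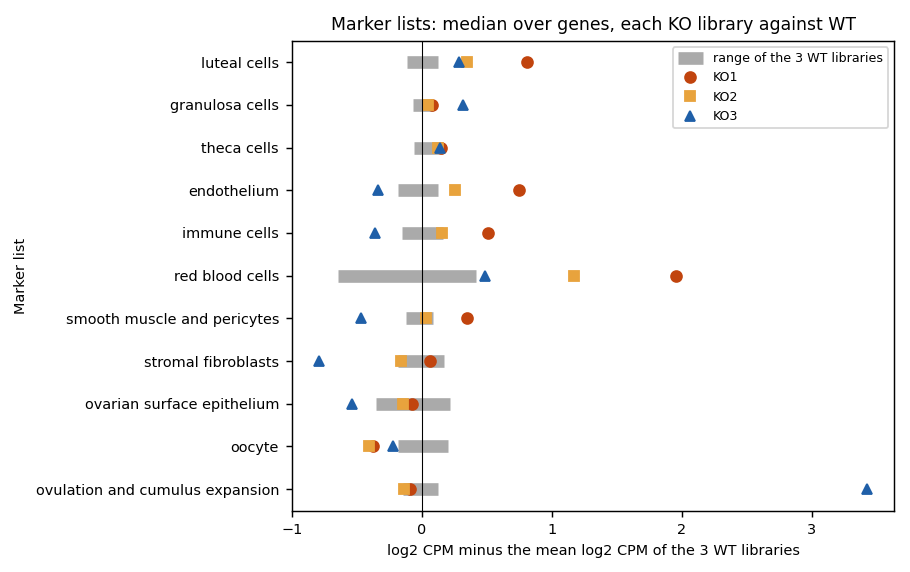
Median difference of each KO library from the mean of the 3 WT libraries (horizontal axis, log2 CPM) over the genes of 11 marker lists. Grey bars span the 3 WT libraries, circles are KO1, squares KO2 and triangles KO3. Endothelial and immune markers lie at 0.75 and 0.51 in KO1 and at -0.33 and -0.36 in KO3, and ovulation genes lie at 3.43 in KO3.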

How the data were processed

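The deposited values are whole-number gene counts made by the authors, 1 file per library. The genome build GRCm38 and the tools STAR 2.5.2b, Trimmomatic 0.36, Subread 1.5.2 and featureCounts are named per the submitters' processing notes. Not given in the sources used here: annotation release, strand setting and treatment of multi-mapping reads. Identifiers were matched to GENCODE M21 symbols (48970 of 49315), or by RefSeq synonym for Prxl2b. Coordinates are those of the count files.

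Counts were analysed in edgeR 4.0.16 (R 4.3.3) with filterByExpr, TMM and the robust quasi-likelihood test of KO against WT with 3 libraries each, adjusted by Benjamini-Hochberg over 18250 genes. CPM use TMM-adjusted library sizes. DESeq2 1.42.0 and limma 3.58.1 (voom) were alternatives. The steps were tested on simulated data first. Precision is that of these counts and 3 libraries a group.

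The members and the 21 gene lists were chosen with earlier results of these data known. Named were all members, Kdm6b, Kdm6a, Ezh2, close relatives of members, the 3 most abundant genes of each list with any called gene of it, and the 10 genes most like the members. Of these, only those that bear on a result are printed. Prxl2b, Gm43618, Gm5096, Bhmt-ps1, Fdx1, Ptger2, Ptger4, Bglap, Sp7, Ibsp and the luteal markers listed by call were chosen after their values were seen. The labels do not say whether replicate numbers pair the libraries, and the main fit used no pairing.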

Additional observations from a re-analysis of the deposited data

How the results depend on the processing

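The number of genes called was 40 and depended on the processing: 199 without a filter, 21 with a filter at a mean of 1 CPM, 221 in DESeq2 and 85 in limma-voom with quality weights, while RLE and upper quartile scaling gave 39 and 31. Leaving out a library gave from 8 (WT2) to 421 (KO3), with 17 without WT1, 9 without WT3, 26 without KO1 and 36 without KO2. With the replicate number as a block 15 were called, Ptgfr among them, which was not called without the block. Deviations of same-numbered libraries correlated at -0.02, 0.07 and -0.03, which shows no sign of pairing by number. So few libraries cannot exclude pairing, and the labels do not state any.

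Luteal markers called went from 0 to 2 without a filter, 5 in DESeq2 and 2 in limma-voom, and from 0 to 5 over the fits that left out a library. The counts of members above every WT library were 7, 8 and 2 under RLE and upper quartile scaling too, and KO3 had 3 without WT2. With prior counts of 0.5 and 5 the members' median in KO3 was -0.32 and -0.30, and those in KO1 and KO2 stayed at 0.95 and 0.69. The members' median difference ranged from 0.67 to 0.79 in KO2 and from -0.36 to -0.23 in KO3 over the WT libraries left out. Of 117 fold changes of members under alternatives 5 changed sign, all of Runx2 or Parm1. The cause of these shifts was not tested. Gpr176 and Inpp5j rest on at most 106 and 299 counts a library, which limits their precision.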
